A study of Mus musculus with 38 samples.

Results

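Dermal papilla and hair germ of nevus skin at postnatal day 56 (P56) showed a large difference in 855 of 12269 protein-coding genes. The rule, given below, asks for 8-fold or more between the nearest libraries and a minimum level in the higher cell type. Of the 855 genes, 539 were higher in the dermal papilla. The comparison joined 4 of the 38 libraries of the series. They were 2 libraries of dermal papilla cells and 2 of hair germ cells from dorsal skin of mutant mice, which carry oncogenic *Nras* under the tyrosinase promoter and develop melanocytic nevi. That promoter is active in the melanocyte lineage, so that neither cell type compared here is the one in which the transgene is meant to act. Wild type dermal papilla and hair germ at P56, with 2 libraries each, served as a second pair of the same cell types, when wild type follicles are in telogen, the resting phase. The study reports that mutant skin at P56 holds growing follicles beside resting ones. Hair cycle phase therefore cannot be told apart from the nevus state in comparisons with wild type. Gene rows were matched on the Ensembl identifier. The 2 tables held 21417 and 19178 genes and shared 17966, of which 14952 were protein coding, and 12269 of these reached 1 FPKM, a measure of fragments scaled to transcript length and library size, in at least 2 of the 4 nevus libraries.

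The dermal papilla is a cluster of specialised fibroblasts at the base of the hair follicle, and the hair germ is the small group of epithelial progenitors that lies against it in the resting follicle. Signals pass between them in both directions: R-spondins, fibroblast growth factors and inhibitors of bone morphogenetic protein (BMP) signalling from the papilla act on the germ, and epithelial WNT, hedgehog and platelet-derived growth factor ligands act on the papilla. The balance of these signals is known to set when a resting follicle enters a new growth phase. The question put to the 4 libraries was which ligands and receptors each of the neighbouring cell types held in nevus skin.

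The cell types came from separate tables, and table and cell type cannot be told apart, so that no test was made between them. Values were rescaled by median ratios over genes above 0 in the libraries used. A large difference was called where the nearest libraries of the cell types differed by 3 or more in log2(rescaled FPKM + 1), which is 8-fold, and both libraries of the higher cell type held at least 5 FPKM. Differences below are dermal papilla minus hair germ on that log2 scale, as mean ± SE over 2 and 2 libraries, and they understate the change of genes with low values. Replicates lay close together in the hair germ, with a median SD over genes of 0.068, and wider apart in the dermal papilla, with a median SD of 0.21. The study's methods call the bulk RNA samples biological replicates. The labels give 2 libraries per group and do not tie them to separate animals, so that their spread may be technical.

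Sex-linked genes separated the nevus groups. *Ddx3y*, on the Y chromosome, stood at 46.8 and 38.8 FPKM in the nevus dermal papilla libraries and at 0 and 0 in nevus hair germ. *Xist*, expressed from the inactive X chromosome, stood at 0.02 and 0 in nevus dermal papilla and at 22.9 and 25.2 in nevus hair germ. The nevus dermal papilla libraries therefore carried the pattern of male mice and the nevus hair germ libraries that of female mice, and sex cannot be told apart from cell type in the nevus comparison. The wild type libraries of both cell types held *Xist* between 22.4 and 33.8 FPKM and *Ddx3y* at 0, so that the wild type pair compares libraries of 1 sex pattern.

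Markers separated papilla from epithelium as labelled, and the hair germ markers did so in part. Of 20 dermal papilla markers, 13 could be compared and 10 of them were higher in the dermal papilla, among them *Corin* at 129 and 108 deposited FPKM against 0.02 and 0, and *Alpl* at 243 and 228 against 0.06 and 0.08. All 10 pan-epithelial markers were higher in the hair germ, where *Krt14* reached 14169.5 and 15152 FPKM. Of the 11 hair germ markers compared, *Cdh3*, *Krt5*, *Krt14*, *Krt15*, *Krt17* and *Sox9* were higher in the hair germ. *Krt5* and *Krt14* are also on the pan-epithelial list. The other 5 were not called, and of these *Tcf7l1* ran toward the papilla, at 9.36 and 7.14 rescaled FPKM against 0.975 and 0.789. *Lgr5*, which marks the hair germ and lower bulge, held 2.07 and 1.43 FPKM in nevus hair germ against 1.45 and 2.57 in the papilla, and *Foxi3* held 0.32 and 0.37. Markers of the interfollicular epidermis summed to 4825 and 4552 FPKM in nevus hair germ and to 1384 and 1352 in wild type hair germ, led by *Krtdap*.

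The 2 nevus dermal papilla libraries differed in their epithelial RNA. The pan-epithelial markers summed to 135 and 1226 FPKM, which is 0.489% and 4.43% of their mean in nevus hair germ. Immune markers summed to 46.5 and 149 and melanocyte markers to 73.2 and 126. Library 2 was the higher in all 3 lists, while library 1 was the higher in mural and muscle markers, at 1216 and 702. Without library 2, 451 genes in place of 316 were higher in the hair germ, and the part of epithelial RNA in that change was not tested. Fibroblast markers in nevus hair germ reached 0.558% and 0.508% of their mean in the papilla, and endothelial markers were low in all 4 nevus libraries, with sums of 6.87 and 4.05 and of 0.36 and 0.43. In bulk samples, fewer cells of a type and less RNA per cell cannot be told apart.

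**Figure D1:**
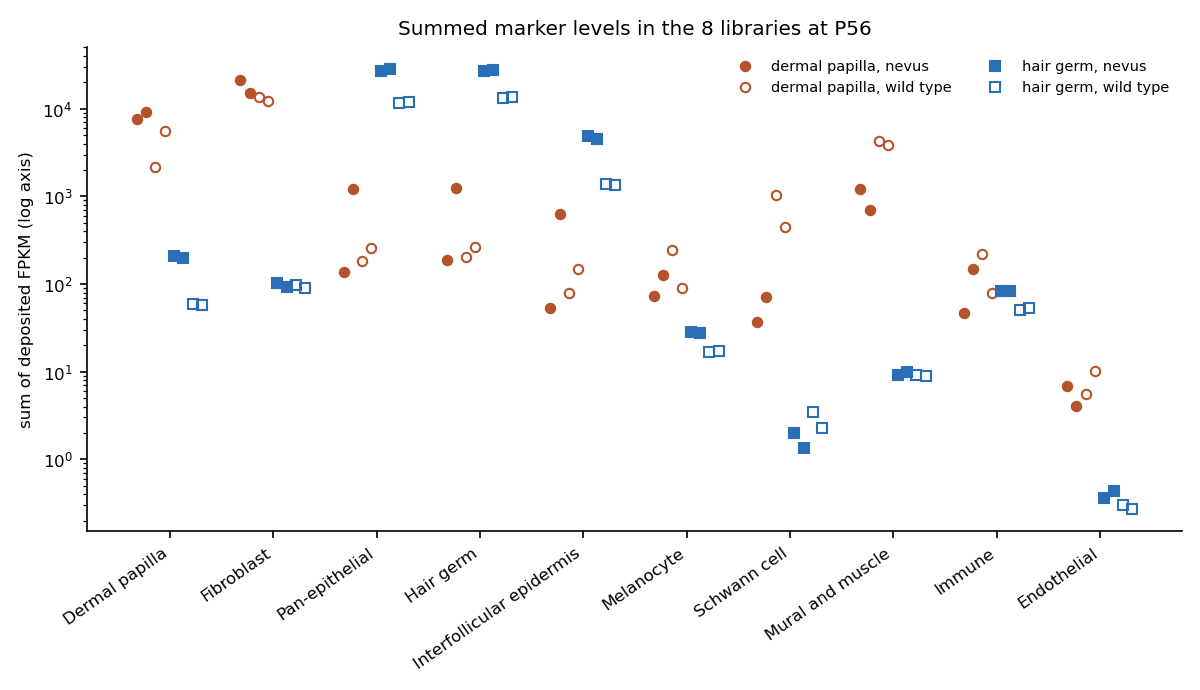
Summed deposited FPKM of the marker genes of 10 cell types (log axis) in each of the 8 libraries at P56, with circles for dermal papilla, squares for hair germ, filled symbols for nevus and open symbols for wild type. Pan-epithelial markers in nevus dermal papilla lay at 135 in library 1 and 1226 in library 2, and Schwann cell markers were highest in wild type dermal papilla.

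Of the 12269 genes, 539 were higher in nevus dermal papilla, which is 4.39%, and 316 were higher in nevus hair germ, which is 2.58%. The median difference over all genes was -0.0042. The split depended on the scaling. With 1 factor per library from the housekeeping list, 762 genes were higher in the papilla and 166 in the germ, so that the papilla took 82.1% of the calls in place of 63.0%, and the median of all genes moved to 0.71. With all libraries scaled to the same sum the papilla took 76.6%, with a median of 0.53.

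The dermal papilla side was led by secreted and matrix genes. *Wif1* (chr10:121033960-121100650, GRCm38), which encodes a secreted WNT inhibitor, held 3173 and 3190.3 FPKM in the papilla libraries against 0.681 and 0.851 in the hair germ, a difference of 10.82 ± 0.07. *Crabp1*, a retinoic acid binding protein, held 2125 and 2966 against 1.19 and 0.975. *Serpine2*, a protease inhibitor, held 2959.6 and 3677 against 1.97 and 2.53. *Enpp2*, which makes lysophosphatidic acid, held 1161 and 1233 against 0.954 and 0.82, and *Apod*, a lipid carrier, held 2256 and 3203 against 2.89 and 1.23. The fibrillar collagen genes *Col1a1* (2658 and 1254 against 1.1 and 1.11) and *Col1a2* (1666 and 919.9 against 0.922 and 0.944) followed. *Spp1* (chr5:104435118-104441050), which encodes osteopontin, completed the 8 largest, with 523 and 560.0 FPKM against 0.0734 and 0.156 and a difference of 8.93 ± 0.073. In each of these genes both papilla libraries lay far above both germ libraries.

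The 8 genes that led the hair germ side were of mixed function. *Akr1c18* (chr13:4132615-4150654), a steroid-reducing enzyme, held 680.0 and 699 FPKM in the hair germ against 0.184 and 1.62 in the papilla, a difference of -8.61 ± 0.57. *Aqp3*, a water and glycerol channel of basal keratinocytes, held 249 and 244 against 0.728 and 1.74. *Plet1*, a surface protein of follicular progenitors (chr9:50494525-50505482), held 1077 and 1079 against 2.91 and 13.6. *Fcgbp* held 327 and 338 against 0.398 and 2.86 and *Stfa3*, a cysteine protease inhibitor, held 83.3 and 69.5 against 0.243 and 0.238. *Ccl27a*, a keratinocyte chemokine that attracts T cells, held 8597 and 8683 against 36.5 and 100. *Ccl27a* has near copies, to which *Gm13306* (5127 and 5144 against 6.97 and 47) may belong, and it overlaps *Il11ra1* on the other strand, so that its level is uncertain. *Eng*, *Igfbp7*, *Cxcl16*, *Lamb3* and *Mst1*, named below, also overlap a gene on the other strand, and the sources used here do not say whether the counting used strand. *Gm10020* (630.3 and 629 against 1.79 and 2.98) was the remaining gene of the 8, and papilla library 2 was the higher of the papilla libraries in all of these but *Stfa3*.

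**Figure D2:**
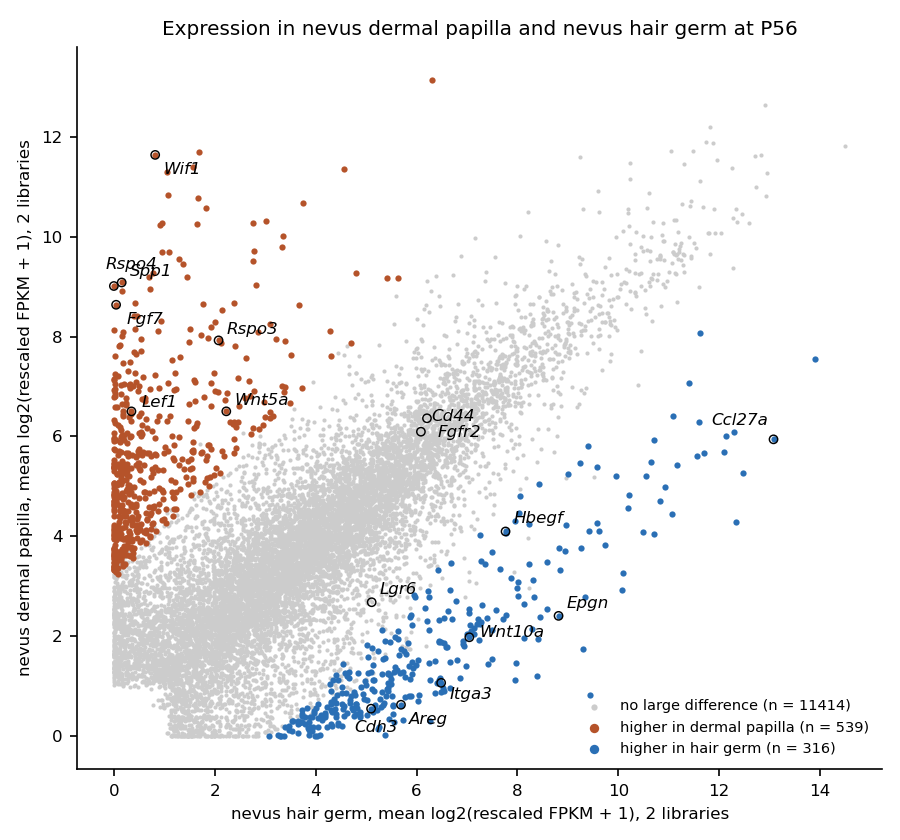
Mean log2(rescaled FPKM + 1) over 2 libraries in nevus hair germ (horizontal axis) and nevus dermal papilla (vertical axis) for 12269 protein-coding genes, with the 539 and 316 genes of the large differences in colour. Named ligands such as *Spp1*, *Rspo4* and *Fgf7* lie along the left edge, and the receptors *Cd44*, *Fgfr2* and *Lgr6* lie among the grey genes.

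Promoters of 2 leading papilla ligands and of 2 hair germ genes are shown because these genes separated the cell types, each as 250 bases before to 50 bases after a RefSeq start site (GRCm38.p6), read 5′ to 3′ on the strand of the gene. Capitals mark matches to TGANTCA with N as any base, a pattern wider than the AP-1 site, which holds C or G at N. The marked stretches, TGAATCA in *Itga3* and TGATTCA in *Plet1*, hold A or T there, so that neither is the AP-1 site itself. The same windows were searched for CTTTGAT on either strand, the letters bound by TCF and LEF factors, and none of the 4 windows held it. TGANTCA stood in 7.81% of 32851 promoter windows and CTTTGAT in 3.73%. Windows were at hand for 582 of the 855 genes, or 68.1%, which is under 80%, so that a comparison of shares between the gene groups is void.
*Spp1* (chr5:104434861-104435160, plus strand): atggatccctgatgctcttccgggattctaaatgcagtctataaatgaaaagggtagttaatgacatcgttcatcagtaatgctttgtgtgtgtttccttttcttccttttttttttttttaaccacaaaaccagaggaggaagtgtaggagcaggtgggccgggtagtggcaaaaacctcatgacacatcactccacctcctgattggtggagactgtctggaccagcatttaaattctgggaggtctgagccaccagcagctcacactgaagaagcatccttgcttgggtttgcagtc
*Rspo4* (chr2:151842677-151842976, plus strand): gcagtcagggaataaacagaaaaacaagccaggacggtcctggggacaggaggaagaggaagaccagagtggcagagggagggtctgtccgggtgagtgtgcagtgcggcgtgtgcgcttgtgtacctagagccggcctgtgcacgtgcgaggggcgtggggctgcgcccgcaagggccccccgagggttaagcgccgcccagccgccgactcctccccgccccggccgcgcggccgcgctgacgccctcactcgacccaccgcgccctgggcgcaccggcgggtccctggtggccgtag
*Itga3* (chr11:95069149-95069448, minus strand): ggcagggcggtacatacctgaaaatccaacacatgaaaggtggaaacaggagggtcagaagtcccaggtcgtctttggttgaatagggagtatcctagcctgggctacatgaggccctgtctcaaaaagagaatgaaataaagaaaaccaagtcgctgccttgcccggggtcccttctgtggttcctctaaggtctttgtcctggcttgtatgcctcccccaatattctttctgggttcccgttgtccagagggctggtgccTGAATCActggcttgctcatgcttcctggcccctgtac
*Plet1* (chr9:50494275-50494574, plus strand): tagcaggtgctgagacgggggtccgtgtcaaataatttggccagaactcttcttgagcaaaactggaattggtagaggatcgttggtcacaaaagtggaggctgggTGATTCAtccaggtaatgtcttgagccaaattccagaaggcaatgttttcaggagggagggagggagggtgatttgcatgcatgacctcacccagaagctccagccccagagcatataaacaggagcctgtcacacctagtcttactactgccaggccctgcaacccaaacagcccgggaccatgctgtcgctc
The match in *Plet1* began 144 bases before the start site, and that in *Itga3* at base 13 after 1 of its 2 start sites. Where a gene had 2 windows, as *Spp1* and *Itga3* did, the window with more TGANTCA matches was printed, so that the match in *Itga3* was selected for. The *Itga3* window lies within the gene (chr11:95044474-95076801). *Itga3* encodes an integrin of the basement membrane and held 81.3 and 96.9 FPKM in the hair germ against 1.43 and 0.816 in the papilla.

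WNT genes held 16 large differences toward the dermal papilla and 4 toward the hair germ among 48 compared, with a median difference of 1.41. For this list and those below, the shares over all genes were 4.39% toward the papilla and 2.58% toward the germ. R-spondins are secreted proteins that raise WNT signalling by sparing the receptors from turnover. All 3 R-spondins compared were higher in the papilla. *Rspo4* (chr2:151842927-151874668) held 384 and 692 FPKM in the papilla libraries and was listed at 0 in both hair germ libraries. *Rspo1* held 90.6 and 187 against 0.147 and 0.0623 and *Rspo3* held 220.2 and 266 against 3.49 and 2.96, so that no papilla library of either gene lay near a germ library. None of the 5 genes of the R-spondin receptors and their ligases showed a large difference, and their median was -1.21. *Lgr6* was the highest of them in the hair germ, with 32.2 and 35 against 4.95 and 5.93 FPKM (-2.43 ± 0.12), and *Lgr4* stood at 5.4 and 5.47 against 17.3 and 13.

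WNT ligands divided between the cell types. *Wnt10a* held 130.0 and 132 FPKM in the hair germ against 1.91 and 4.35 in the papilla (-5.07 ± 0.44), and *Wnt3* held 53.3 and 53.3 against 0.0194 and 1.94. *Wnt4* (22.4 and 22.6 against 0.194 and 0.962) was the other ligand called higher in the germ. The papilla held *Wnt5a*, a ligand of the branch that does not act through beta-catenin, at 89.4 and 90.1 against 3.34 and 4.06. It also held *Ndp*, which encodes the Frizzled ligand norrin, at 48.4 and 67.8 against 0.189 and 0.218. Of the 13 WNT receptors, *Fzd1* (112 and 94.5 against 6.99 and 6.75) and *Ror2* (16.6 and 12.7 against 0.115 and 0.166) were higher in the papilla and *Fzd6* (12.2 and 12.5 against 0.398 and 0.486) in the germ.

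WNT inhibitors were higher in the papilla in 6 of 8 cases and in the hair germ in none. Beside *Wif1*, *Sfrp2* held 117 and 149.6 FPKM against 0.0314 and 0 and *Sfrp1* held 259 and 281 against 6.62 and 5.82, both secreted proteins that bind WNT ligands. *Notum*, an enzyme that inactivates WNT ligands, held 178 and 139 against 0.189 and 0.239 (7.03 ± 0.18). Of 7 genes that respond to or carry WNT signals, 3 were higher in the papilla and none in the germ. *Lef1*, a DNA-binding partner of beta-catenin, held 76.4 and 105 against 0.377 and 0.176, *Nkd2* held 129 and 139 against 1.04 and 1.17, and *Nkd1* held 29 and 27.7 against 0.168 and 0.0726. *Tcf7*, *Tcf7l1*, *Tcf7l2* and *Axin2* were not called, the last a widely used target at 3.89 and 4.37 against 2.22 and 1.93.

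BMP, activin and FGF genes with large differences were all higher in the papilla. *Inhba* (chr13:16011851-16031621), the subunit of activin A, held 537 and 634 FPKM against 1.47 and 2.02 (7.74 ± 0.19), and *Tgfb2* held 33.7 and 48.7 against 2.94 and 3.18. Of the BMP genes, 3 of 20 were called. They were the ligand *Gdf10* (61.2 and 70.8, and 0 in both germ libraries), the BMP antagonist *Nog* (39.5 and 20.9 against 0.252 and 0.259) and *Bambi*, a decoy receptor (82.8 and 113 against 4.78 and 4.42). *Bmp4* lay just outside the threshold, with 209 and 187 against 22.5 and 22.6. The receptor *Bmpr1a* was not called, with 14.8 and 15 in the papilla and 9.4 and 9.65 in the germ, nor was the activin antagonist *Fst*, with 109 and 84.3 and 109 and 116. The BMP target *Id3* was abundant in both, at 1523 and 1360.5 in the papilla and 792 and 785 in the germ, and the co-receptor *Eng* was higher in the papilla (55.1 and 39.8 against 0.377 and 0.332).

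*Fgf7* (chr2:126034658-126091185), a ligand made by mesenchyme that acts on epithelium, held 341 and 462 FPKM in the papilla against 0.021 and 0.0415 in the germ (8.59 ± 0.22). Its receptor gene *Fgfr2* held 73.8 and 71.9 in the germ and 91.3 and 72.6 in the papilla, a difference of 0.16 ± 0.16. Splice forms of *Fgfr2*, which decide its ligands, were not separated in these gene-level values. *Fgfr1* was higher in the papilla (270.5 and 279 against 21 and 16.3). *Dusp6*, a phosphatase induced by FGF and other kinase signals, was not called and stood at 108 and 103 in the germ and 23.8 and 17.5 in the papilla.

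Of 10 hedgehog genes compared, 4 were higher in the papilla and none in the germ. *Hhip*, a hedgehog-binding inhibitor that is itself a target of the pathway (chr8:79965851-80058006), held 463 and 495 FPKM against 0.0419 and 0.197. The receptor and target *Ptch1* held 32.9 and 24.3 against 0.618 and 0.612, and the transcription factors *Gli1* (14.9 and 12.9 against 0.231 and 0.197) and *Gli2* (15.3 and 17.2 against 0.838 and 0.737) followed. *Ptch1* was the 1 receptor gene of 6 that was called. The signal transducer *Smo* stood at 20.4 and 25.6 in the papilla and 15 and 16.4 in the germ, and the co-receptor *Boc* at 16.8 and 11.2 against 9.7 and 10.4. The ligand *Shh* could not be compared: it was listed in the papilla table alone, at 0 and 0 FPKM. For platelet-derived growth factor, the receptor *Pdgfra* held 71.7 and 50.2 in the papilla against 0.0314 and 0.0311 in the germ. The ligand *Pdgfa* ran the other way, 73.7 and 76.7 in the germ against 7.77 and 11.9 in the papilla, and its difference of -2.84 ± 0.28 was below the threshold. Of the 11 insulin-like growth factor (IGF) genes, 5 were higher in the papilla: *Igf1* (45.1 and 55.5 against 0.597 and 0.643), *Igf2* (10.1 and 12.7 against 0.283 and 0.125), *Igfbp5*, *Igfbp6* and *Igfbp7*. *Igfbp7*, a secreted binding protein, was the most abundant of them, at 3239 and 2084 against 22.7 and 22.3. The insulin receptor *Insr* stood at 18.9 and 30.4 in the papilla and 30.7 and 31.7 in the germ.

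Epidermal growth factor (EGF) ligands marked the hair germ. *Epgn* (chr5:91027464-91035215), epigen, held 448 and 451 FPKM in the germ against 1.07 and 12.7 in the papilla (-6.41 ± 1.36). *Areg*, amphiregulin, held 54.3 and 47.3 against 0.0582 and 1.26, and *Hbegf* held 216 and 217 against 16.6 and 15.7. These were 3 of the 7 EGF ligands compared, and none was called higher in the papilla. Their receptor *Egfr* was found in both cell types, at 21.3 and 19.5 in the germ and 11.2 and 8 in the papilla, without a large difference. *Nrg2*, a ligand of ERBB3 and ERBB4, stood at 25.1 and 128 in the papilla and 2.14 and 2.42 in the germ and was not called, with papilla library 1 the lower of the 2.

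Notch, endothelin and tumour necrosis factor (TNF) genes gave smaller sets. *Jag2*, a Notch ligand, was higher in the germ (26.1 and 27.4 against 0.116 and 0.669), whereas the Notch targets *Hey2* (35.7 and 38 against 0.0419 and 0.0415) and *Hey1* (27.5 and 30.1 against 0.419 and 0.664) were higher in the papilla. *Notch1* itself stood at 19.3 and 20.2 in the germ and 3.57 and 3.43 in the papilla. *Edn3*, the endothelin that acts on melanocytes, held 96.1 and 93.9 in the papilla against 0 and 0.0311. The endothelin receptors *Ednrb* (309.9 and 128 against 0.304 and 0.425) and *Ednra* (50.7 and 42 against 1.35 and 1.78) were higher in the papilla too. *Ednrb* is also a melanocyte gene. It was the higher in papilla library 1 and the summed melanocyte markers in library 2, and the part of melanocyte RNA in its level was not tested. *Tnfrsf11b*, the decoy receptor osteoprotegerin, held 24.1 and 21.8 against 0.629 and 0.768. *Tnfsf12* held 11.2 and 14.6 against 0.178 and 0.239 and overlaps a read-through gene on the same strand, so that its value is uncertain.

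Guidance and other ligand families showed few large differences. *Efnb3* (20.8 and 19.8 against 0.0838 and 0.0623) and the ephrin receptor *Epha7* (10.1 and 8.98, and 0 in both germ libraries) were higher in the papilla, and *Epha2* (46.3 and 51.2 against 3.08 and 3.55) in the germ. *Slit2*, *Ntn1* and *Robo2*, a ligand, a second ligand and a receptor of axon guidance, were higher in the papilla, with papilla values of 17.4 and 12.2 for *Slit2*, 17.6 and 8.63 for *Ntn1* and 39.2 and 36.3 for *Robo2* against at most 0.176 in the germ. *Sema3b* was the 1 semaphorin called, at 15.8 and 16.4 against 0.388 and 0.643, and the plexin *Plxnb2* stood at 37.5 and 28.3 in the papilla and 38.4 and 44.3 in the germ. *Angpt4*, an angiopoietin, held 89 and 130.0 against 0.136 and 0.228, while the vascular receptor *Nrp2* was low in both, at 8.46 and 5.93 in the papilla and 3.01 and 2.78 in the germ. *Gfra2*, a receptor for neurturin, held 9.58 and 11.9 in the papilla and 0 in the germ, and its ligand *Nrtn* stood at 19.6 and 13.8 in the papilla and 25.6 and 21.1 in the germ. *Mst1* and its receptor *Mst1r*, relatives of the hepatocyte growth factor pair, were not called, with germ values of 6.7 and 8.6 for *Mst1* and 10.9 and 11.8 for *Mst1r*. *Mdk*, midkine, held 251 and 316 against 0.503 and 0.187, and the receptors *Ptprz1* (43.3 and 49.7 against 1.13 and 1.39), *Pth1r* and *Lrp1* were also higher in the papilla.

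Of 24 chemokine and cytokine ligands, 5 were higher in the hair germ and *Ccl11* alone was higher in the papilla (18.8 and 16.8 against 0.22 and 0.55). Beside *Ccl27a*, *Ccl20* held 44.5 and 46.4 FPKM in the germ against 0.524 and 0.202, *Cxcl16* held 300.1 and 295 against 8.38 and 11.7, and *Il33*, an alarm cytokine of epithelia, held 100.2 and 101 against 6.36 and 6.79. *Tslp*, a cytokine of barrier epithelium, was the fifth, at 21.4 and 20.4 against 1.06 and 1.31. None of the 13 cytokine and chemokine receptors was called in either direction, the most abundant being *Il11ra1*, at 284 and 268 in the papilla and 115 and 111 in the germ, which overlaps *Galt* on the same strand and *Ccl27a* on the other. Over all pathway lists, 18 of 124 ligands were higher in the papilla and 12 in the germ, and 16 of 119 receptors were higher in the papilla and 6 in the germ. Of all genes compared, 4.39% were higher in the papilla and 2.58% in the germ. For antagonists the counts were 9 of 16 in the papilla and none in the germ.

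**Figure D3:**
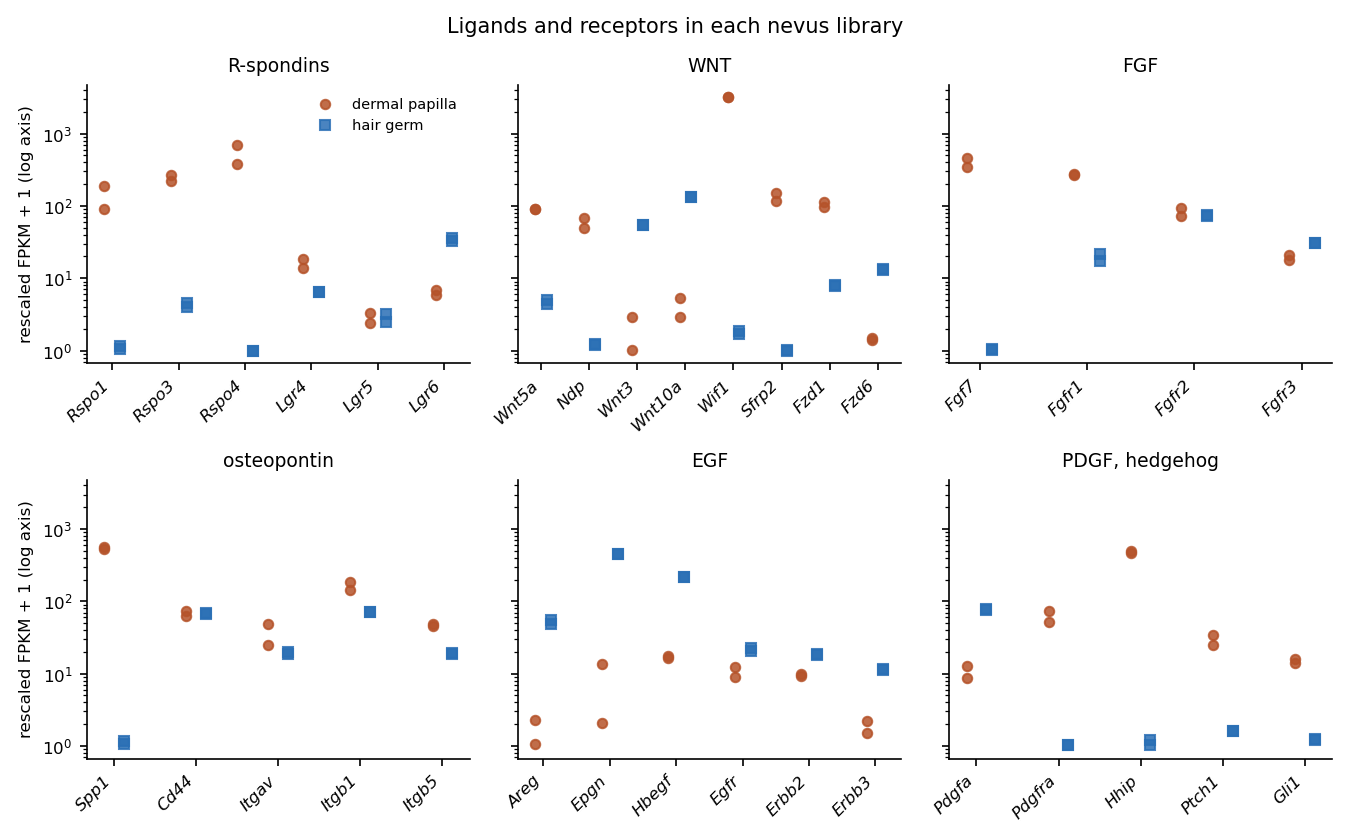
Rescaled FPKM + 1 (log axis) of ligands, receptors and inhibitors in each of the 2 nevus dermal papilla libraries (circles) and 2 nevus hair germ libraries (squares), in 6 groups. R-spondins, *Fgf7* and *Spp1* separate the cell types, and the libraries of *Fgfr2* and *Cd44* lie close together.

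*Spp1* separated the cell types, whereas *Cd44* and the integrin subunits *Itgav*, *Itgb1* and *Itgb5*, which bind osteopontin, showed no large difference. *Cd44* (chr2:102811141-102901665), the hyaluronan receptor that also binds osteopontin, held 72.9 and 62.3 FPKM in the papilla and 65.3 and 68.7 in the germ, a difference of 0.0089 ± 0.12. *Itgav* stood at 47.3 and 23.8 in the papilla and 17.9 and 18.9 in the germ, *Itgb1* at 185 and 144 against 69.1 and 71.2, and *Itgb5* at 47.9 and 44.2 against 17.6 and 18.3, with the papilla the higher in each. *Itga5* stood at 28.7 and 17.2 against 2.36 and 2.71 and was not called. Of other subunits that bind osteopontin, *Itga9* (24.1 and 25.4 deposited FPKM) and *Itgb3* (5.46 and 2.17) had a row in the papilla table alone and were not compared. *Mmp9*, a secreted protease that can cut CD44 from the cell surface, held 83 and 75.3 in the papilla and was at 0 in the germ. Of 14 integrin and CD44 receptor genes compared, *Itga3*, *Itga6*, *Itgb4* and *Itgb6* were higher in the germ and *Itga1* in the papilla (9.68 and 10.2 against 0.126 and 0.197). *Itga6*, a laminin-binding subunit, held 97.2 and 97.9 against 3.1 and 6.96, its partner *Itgb4* held 47.9 and 52.7 against 1.07 and 1.83, and *Itgb6*, of a fibronectin-binding integrin, held 16.7 and 14.5 against 0.543 and 0.568.

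Matrix and junction genes divided along the epithelial boundary. Of 19 collagen genes, 12 were higher in the papilla and 1 in the germ, with a median difference of 4.89. *Col3a1* (2078 and 1486 against 1.98 and 2.38) and *Col6a2* (398 and 291 against 0.356 and 0.28) were among the 12, and *Col17a1*, the hemidesmosome collagen, was the 1 on the other side (337 and 339.9 against 1.23 and 5.75). *Vcan*, the proteoglycan typical of the papilla, held 155 and 204 against 0.252 and 0.228, *Fn1* held 66.8 and 35.4 against 0.849 and 0.706, and the laminin chain *Lama2* held 53.8 and 76.5 against 0.136 and 0.156. The epithelial laminin chain *Lamb3* held 122 and 132 in the germ against 2.19 and 4.3. Of 21 cadherin and junction genes, 14 were higher in the germ and *Cdh11* alone in the papilla (177 and 128 against 0.021 and 0). *Cdh3*, P-cadherin, held 33.6 and 33 against 0.378 and 0.559, *Cldn1* held 315 and 329.5 against 3.33 and 9.95, and *Dsp* held 88.4 and 87.2 against 0.398 and 2.63. In this list papilla library 2 was above library 1 in *Cldn1*, *Dsp* and *Cdh3*, as in the summed pan-epithelial markers.

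Cell division genes ran toward the germ without meeting the rule for a large difference. None of 24 mitosis genes and none of 17 DNA replication genes was called, with medians of -1.90 and -1.18 against -0.0042 over all genes. Of all genes, 2.58% were called higher in the germ, so that 0 calls in lists of this size say little. The summed mitosis genes in the papilla libraries were 20.5% and 23.0% of their mean in nevus germ. *Mki67* held 0.34 and 0.32 deposited FPKM in the papilla and 4.39 and 4.43 in the germ, under the 5 FPKM that a call needs. *Nras* was detected in both, at 24.4 and 21.6 rescaled FPKM in the papilla and 63.5 and 73.7 in the germ, and the sources used here do not say whether reads of the transgene were counted with it.

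**Figure D4:**
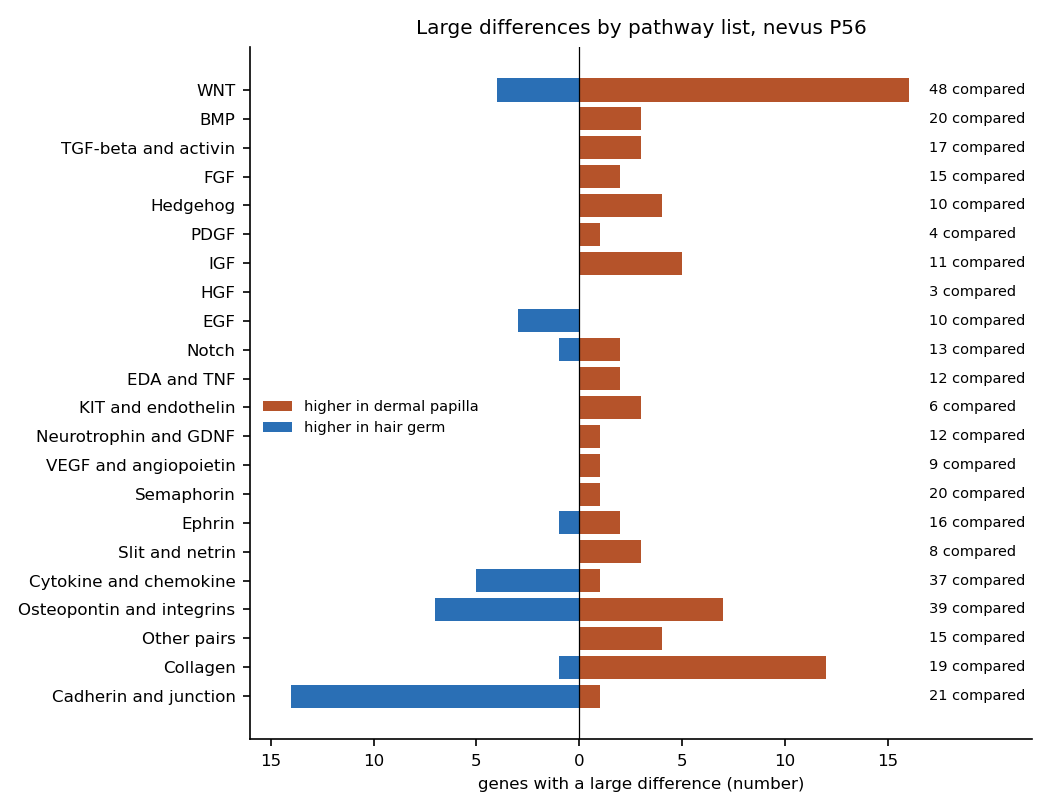
Number of genes with a large difference in each of 22 pathway lists, to the right for genes higher in nevus dermal papilla and to the left for genes higher in nevus hair germ, with the number compared beside each bar. WNT genes reached 16 on the papilla side and cadherin and junction genes 14 on the germ side.

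Ligands and receptors were then read as pairs. Of 136 pairs listed, 97 had both genes compared, and in none of them was the ligand called higher in 1 cell type and the receptor in the other. With 4.39% of all genes called higher in the papilla and 2.58% in the germ, few split pairs would be met in any such set. Their absence is therefore not read as a result about the pairs. The ligand was higher in the papilla in 28 pairs, and the receptor was not called in 25 of these. In the remaining 3, *Wnt5a* with *Ror2*, *Edn3* with *Ednrb* and *Slit2* with *Robo2*, both genes were higher in the papilla. The ligand was higher in the germ in 10 pairs, 8 with a receptor that was not called, and both genes were higher in the germ for *Lama3* with *Itga6* and with *Itga3*. At a 4-fold threshold 6 pairs were split. They were *Rspo1*, *Rspo3* and *Rspo4* with *Lgr6*, *Nrg2* with *Erbb3*, and in the other direction *Pdgfa* with *Pdgfra* and *Edn1* with *Ednra*. Without papilla library 1 the pair *Tnfsf12* and *Tnfrsf12a* was split, and without library 2 the pair *Pdgfa* and *Pdgfra*.

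Pairs were also read by level rather than by difference. The ligand held 5 deposited FPKM or more in both papilla libraries and the receptor in both germ libraries in 35 of 136 pairs, a level chosen after the values were seen. These included all 4 R-spondins with *Lgr4* and with *Lgr6*, *Fgf7* and *Fgf10* with *Fgfr2*, *Bmp4* and *Bmp6* with *Bmpr1a*, *Tgfb2* with *Tgfbr2*, *Inhba* with *Acvr2a*, and *Spp1* with *Cd44* and *Itgav*. In the direction from germ to papilla, 29 pairs met the same level, among them *Pdgfa* with *Pdgfra*, *Areg*, *Epgn* and *Hbegf* with *Egfr*, *Edn1* with *Ednra*, *Jag2* with *Notch2* and *Pthlh* with *Pth1r*. Ligand and receptor both reached it within the papilla in 49 pairs and within the germ in 27. All the papilla-to-germ examples above also reached it within the papilla. *Pdgfa* with *Pdgfra* reached it within the papilla too, and the *Egfr* pairs and *Jag2* with *Notch2* within the germ. The *Edn1* and *Pthlh* pairs reached it from germ to papilla alone. The share of all genes at this level was not computed, so that the counts have no baseline and are not read as a result about the pairs. A level of RNA in each of 2 cell types does not show that the proteins meet.

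Some known papilla signals could not enter the comparison because they had a row in 1 table only. There were 1891 such protein-coding genes in the papilla table, 109 of which held 5 FPKM or more in both nevus libraries, and 623 in the hair germ table, of which 4 did. Among the 109 were *Rspo2* at 96.9 and 98.4 deposited FPKM, *Fgf10* at 77 and 96, the WNT antagonists *Frzb* at 81.8 and 74 and *Dkk2* at 30.8 and 27.8, *Bmp6* at 14 and 20.2, the leptin receptor *Lepr* at 80.5 and 79.2 and *Pdgfrb* at 44.9 and 30.2. In the hair germ table *Il1a*, interleukin-1 alpha, held 7.25 and 7.36. Their level in the other cell type was not analysed here. With such genes set to 0 in the other table, 621 and 319 genes were called.

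The wild type pair of cell types, with no library in common with the nevus pair, was read with the same rule. In wild type skin 516 of 12442 genes were higher in the papilla (4.15%) and 259 in the germ (2.08%). The papilla lists shared 313 genes, which is 58.1% of the nevus list and 60.7% of the wild type list. The germ lists shared 164 genes, 51.9% of the nevus and 63.3% of the wild type list. *Spp1*, *Fgf7*, *Rspo1*, *Rspo3*, *Sfrp2*, *Notum*, *Hhip*, *Inhba* and *Edn3* were called in both skins on the papilla side, and *Ccl27a*, *Cxcl16*, *Jag2*, *Wnt4* and *Cdh3* on the germ side. *Wif1*, *Rspo4*, *Lef1*, *Wnt5a*, *Areg*, *Epgn*, *Hbegf* and *Wnt10a* were called in nevus skin and not in wild type skin, which by itself does not show that they differed. The rule reads the lower library, and the wild type papilla libraries lay apart in *Wif1* (51.6 and 1598 deposited FPKM), *Rspo4* (7.56 and 63.5) and *Wnt5a* (7.41 and 61.9). In the germ *Epgn* held 23.1 and 27.7 in wild type against 428 and 434 in nevus. *Hbegf* was near level there, at 215 and 216 against 206 and 209.

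Whether the distance between the cell types differed between nevus and wild type skin was tested directly, since an offset between tables cancels in that contrast. The limma model took all 8 libraries at P56, rescaled together, over 12950 genes. A positive value means that dermal papilla minus hair germ was larger in nevus than in wild type skin, in log2(rescaled FPKM + 1). At an adjusted p under 0.05 and a 2-fold size, 1072 genes (8.28%) were positive and 1295 (10.0%) negative. With the deposited FPKM in place of rescaled values the counts were 1652 and 1011, so that the positive share moved from 45.3% to 62.0% and the median of all genes from 0.021 to 0.23. The nevus papilla libraries carried the male pattern and the other 6 the female pattern, and *Eif2s3y* and *Ddx3y* of the Y chromosome were among the 5 largest positive genes, at 5.46 ± 0.26 and 5.45 ± 0.26. Sex and the nevus state of the papilla cannot be told apart in these libraries. Nor can hair cycle phase and the nevus state of either cell type. Leaving out 1 hair germ library brought the number of genes called from 2367 to between 979 and 1022.

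Marker content moved with this contrast in the papilla. The dermal papilla markers themselves summed to 2192 and 5537 FPKM in wild type and 7606 and 9153 in nevus papilla. Wild type library 1 stood apart, with *Hhip* at 8.17 and 365 and *Vcan* at 24.4 and 165 in the 2 wild type libraries. Schwann cell markers summed to 1035 and 450.0 FPKM in wild type papilla and 36.5 and 71.9 in nevus papilla, and mural and muscle markers to 4255 and 3857 in wild type and 1216 and 702 in nevus papilla. The largest negative genes included *Mbp* (-7.95 ± 0.24, adjusted p = 4.73e-05), a myelin gene that held 215 and 185 FPKM in wild type and 1.14 and 1.73 in nevus papilla, and *Ngfr* (-6.81 ± 0.57, adjusted p = 0.00094), which Schwann cells also express. *Myh11*, a smooth muscle gene, gave -5.88 ± 0.22 and *Art3* gave -6.09 ± 0.38. Melanocyte markers summed to 244 and 89.5 in wild type and 73.2 and 126 in nevus papilla, with 4 of 7 genes higher and 2 lower in nevus. Of the Schwann cell list 4 of 5 genes were negative and of the mural and muscle list 4 of 6, and their part in the other results was not tested. *Mmp13* at 5.30 ± 0.34 and *Aldh1a7* at 5.23 ± 0.37 were the other positive genes of the 5 beside *Wif1*.

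Of 382 pathway genes tested, 58 were positive and 88 negative, with a median of -0.12 against 0.021 over all genes. The shares over all genes were 8.28% positive and 10.0% negative. *Spp1* was positive (3.73 ± 0.25, adjusted p = 0.000474 by limma): it held 556 and 592 FPKM in nevus papilla and 47.9 and 65.3 in wild type papilla, and was under 1 FPKM in all 4 hair germ libraries. Over 15 alternatives, each with the same call, its value ran from 3.51 to 4.76. *Mmp9* followed the same course, from 4.3 and 5.21 in wild type papilla to 88.3 and 79.6 in nevus papilla, with 0 in the hair germ (3.89 ± 0.24, adjusted p = 0.000474). *Rspo4* was positive (4.71 ± 1.16, adjusted p = 0.028), with 408 and 732 against 7.2 and 62 in the papilla, and lost its call when any 1 of the 4 hair germ libraries or nevus papilla library 2 was left out. *Wif1* had the largest positive value (6.75 ± 1.86, adjusted p = 0.0394) and rests on wild type papilla libraries that disagree, at 49.2 and 1561 FPKM. Its call was lost when either nevus papilla library or any 1 of the 4 hair germ libraries was left out, and neither the papilla contrast (adjusted p = 0.0844) nor the germ contrast (adjusted p = 0.141) passed alone.

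In other genes the values moved in the hair germ. *Lef1* was positive (3.36 ± 0.31, adjusted p = 0.00121) with levels of 9.78 and 9.38 in wild type germ and 0.402 and 0.188 in nevus germ, and of 64.9 and 88.9 in wild type and 81.2 and 111 in nevus papilla. *Lgr5* was positive as well (2.10 ± 0.33, adjusted p = 0.00623), with 16.7 and 16.8 in wild type germ and 2.31 and 1.58 in nevus germ. *Notum* gave 2.98 ± 0.36 and *Gli2* gave 2.81 ± 0.23, both lower in nevus than in wild type germ. *Areg* (-3.41 ± 0.49), *Wnt10a* (-3.37 ± 0.44), *Ccl20* (-2.96 ± 0.51) and *Tslp* (-2.35 ± 0.37) were negative, each being higher in nevus than in wild type germ. *Wnt10a* held 139 and 141 FPKM in nevus germ and 43.6 and 38.9 in wild type germ, and it also fell in the papilla, from 14.8 and 9.27 in wild type to 2.03 and 4.6 in nevus. The summed interfollicular epidermis markers were higher in nevus germ as well, as given above, with a median change in the germ of 1.88 over the 6 tested. None of the 6 passed in the germ, in a test whose spread is shared by all 8 libraries. In the nevus papilla libraries this list summed to 53.8 and 629 FPKM. Not passing therefore says little about the germ. Immune markers summed to 82.6 and 82.5 in nevus and 50.3 and 52.7 in wild type germ, and 3 of 7 rose. The part of either list in these differences was not tested.

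The osteopontin receptor *Cd44* was negative (-1.97 ± 0.20, adjusted p = 0.0017). It held 104 and 121 FPKM in wild type and 77.5 and 65.9 in nevus papilla, and 25.8 and 30.1 in wild type and 69.6 and 73.3 in nevus germ, so that the libraries of the cell types overlapped in nevus skin. *Nras* was negative (-1.94 ± 0.20, adjusted p = 0.0018), with 67.7 and 78.7 in nevus germ against 33.3 and 33.9 in wild type germ, and 26 and 22.9 in nevus against 48.7 and 40.9 in wild type papilla. Integrins were negative, with *Itga3* at -3.98 ± 0.58, *Itgb4* at -3.92 ± 0.49 and *Itga6* at -2.96 ± 0.54, the last losing its call without wild type hair germ library 1. All 3 were lower in nevus than in wild type papilla. In the germ *Itga3* was higher in nevus, at 77.55 and 93.42 deposited FPKM against 33.78 and 36.35. *Itga6* was higher there too, at 92.72 and 94.37 against 70.78 and 74.44, and *Itgb4* was near level, at 45.75 and 50.76 against 49.83 and 49.5. The papilla groups also differ in Schwann cell markers, and *Itgb4* and *Itga6* are known in Schwann cells. The part of Schwann cell RNA in these values was not tested. *Ptch1* (2.19 ± 0.87, adjusted p = 0.108), *Rspo3* (1.29 ± 0.71, adjusted p = 0.223) and *Mki67* (-0.41 ± 0.26, adjusted p = 0.277) did not pass the test.

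By list, neurotrophin and GDNF genes had 7 negative and no positive genes of 13 tested, cytokine and chemokine genes 14 negative and 4 positive of 38, and osteopontin and integrin genes 15 negative and 4 positive of 39. Over all genes tested, 8.28% were positive and 10.0% negative. WNT genes had 12 positive and 7 negative of 51, and BMP genes 8 positive and 3 negative of 23. The positive WNT genes beside those given were *Ndp*, *Fzd1*, *Fzd2*, *Fzd7*, *Ror2*, *Lgr4* and *Sfrp4*, and the negative ones were *Wnt3*, *Wnt6*, *Wnt7b*, *Wnt10a*, *Wnt16*, *Fzd9* and *Sfrp5*. Positive BMP genes were *Gdf5*, *Gdf10*, *Bmpr1a*, *Bambi*, *Smad6* and the targets *Id1*, *Id2* and *Id3*, and negative ones were *Bmp7*, *Grem1* and *Nbl1*. In the activin and FGF lists *Tgfb1*, *Inhbb*, *Gdf15*, *Fgf18*, *Fgf21* and *Etv4* were positive and *Tgfbr2*, *Acvr2b*, *Fgf2* and *Fgf13* negative. Positive hedgehog genes included *Gli1* and *Gli2*. Among growth factor genes *Pdgfc*, *Igfbp2*, *Igfbp4*, *Nrg2* and *Egfr* were positive, and *Pdgfa*, *Pdgfb*, *Igf1*, *Igf2r*, *Igfbp3*, *Igfbp7*, *Mst1*, *Met*, *Mst1r*, *Tgfa*, *Hbegf*, *Areg*, *Nrg1* and *Erbb3* negative.

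In the remaining lists the positive genes were *Hey1*, *Hey2* and *Heyl* of the Notch list, *Edar* and *Tnfrsf11b* of the TNF list, *Edn3*, *Ednra* and *Ednrb* of the endothelin list, *Efna1*, *Efna4*, *Efnb1*, *Efnb2* and *Slit3* of guidance, *Cxcl1*, *Cxcl12*, *Cxcr4* and *Il11ra1* of chemokines and cytokines, and *Fn1*, *Thbs3*, *Ptprz1*, *Mertk* and *Col5a1*. The negative genes included *Dll1* and *Notch1*, *Tnfsf11*, *Tnfrsf11a* and *Tnfrsf12a*, *Kitl*, the nerve-related *Ntf3*, *Gdnf*, *Artn*, *Ntrk2* and *Gfra3* beside *Ngfr*, and *Figf*, *Sema3b*, *Sema3c*, *Sema3f* and *Sema4d*. Chemokine and cytokine genes on that side were *Cxcl16*, *Ccl2*, *Ccl7*, *Ccl8*, *Ccl20*, *Csf1*, *Il34*, *Il6*, *Il15*, *Lif*, *Tslp*, *Il6ra*, *Il15ra* and *Il18r1*. Adhesion and matrix genes on that side included *Itga2*, *Itga5*, *Itga7*, *Itga8*, *Itgb1*, *Itgb6*, *Itgb8*, *Npnt*, *Thbs2*, *Lama3*, *Lama5*, *Col4a5*, *Col4a6*, *Col16a1*, *Cdh3*, *Jup*, *Ocln* and *Gjb6*, with *Ptn*, *Gas6*, *Pros1*, *Adm* and *Reln* from the list of other pairs.

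**Figure D5:**
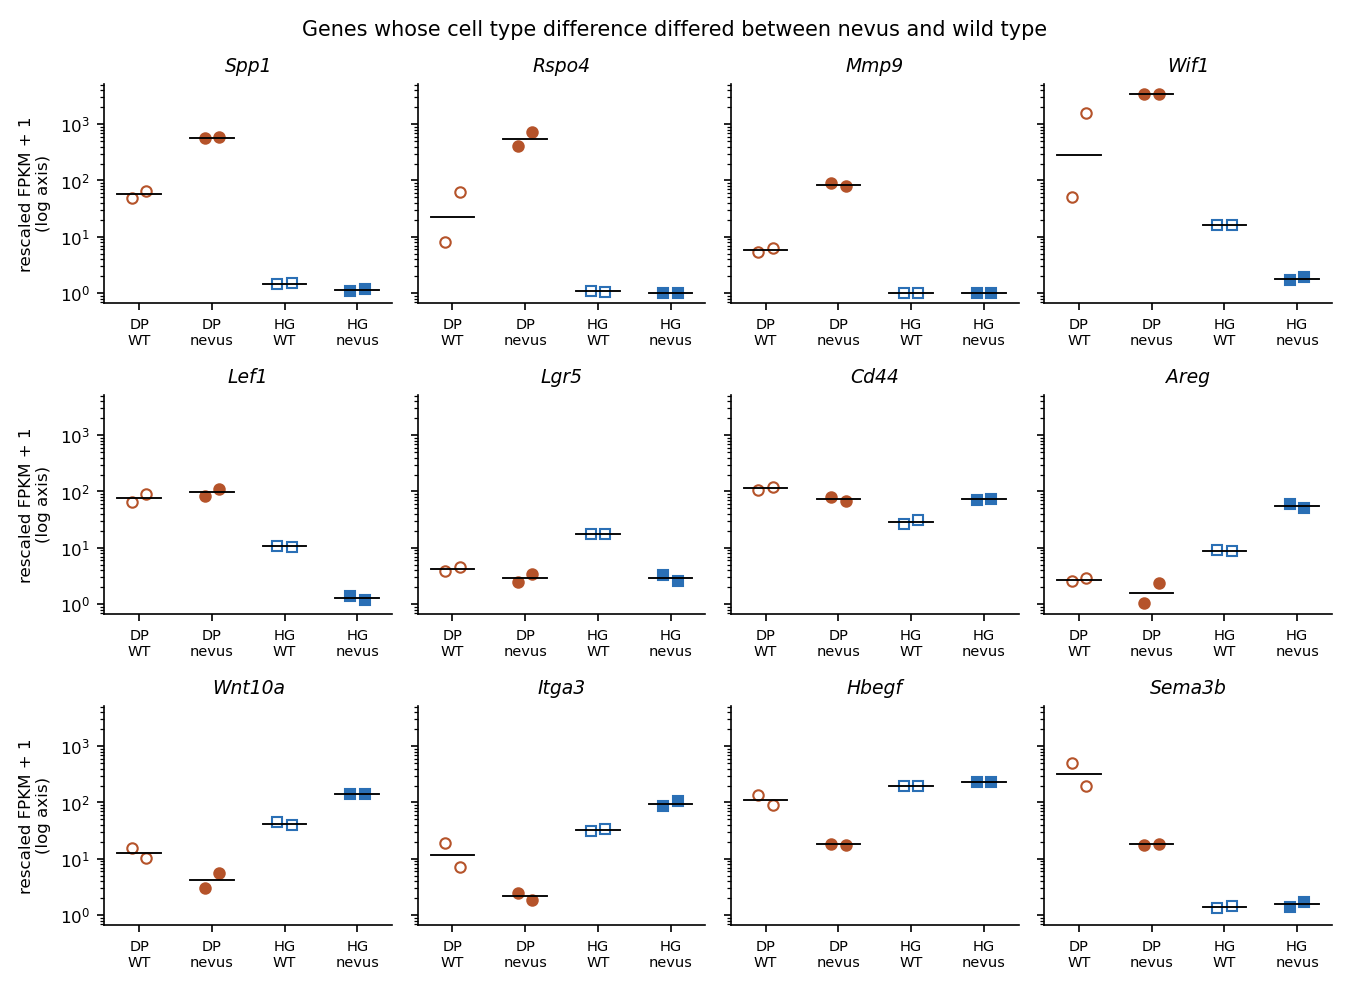
Rescaled FPKM + 1 (log axis) of 12 genes in wild type and nevus dermal papilla (DP, circles) and hair germ (HG, squares), with a point per library and a line at the geometric mean of the 2 plotted values. *Spp1*, *Rspo4* and *Mmp9* differ between the papilla groups, *Lef1*, *Lgr5* and *Areg* between the germ groups, and the wild type papilla points of *Wif1* lie far apart.

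The separate contrasts show on which side the genes moved. The sum of dermal papilla markers, lower in wild type papilla and lowest in its library 1, moved with the papilla contrast, and its part was not tested. In the papilla 721 genes (5.57%) were higher and 869 (6.71%) lower in nevus than in wild type, and in the germ 717 (5.54%) were higher and 512 (3.95%) lower. The model's spread is shared by all 8 libraries. Its median SD was 0.219 in nevus and 0.204 in wild type papilla, against 0.0687 and 0.066 in the germ. Papilla SEs and p-values can therefore be too small. With the spread estimated by cell type, 923 papilla genes changed in place of 1590. In the papilla *Spp1* rose by 3.34 ± 0.18 (adjusted p = 0.000113, limma), *Mmp9* by 3.89 ± 0.17 (adjusted p = 6.39e-05), *Rspo3* by 2.28 ± 0.50 (adjusted p = 0.0182) and *Edn3* by 1.66 ± 0.19 (adjusted p = 0.00198). For *Rspo3* the wild type papilla libraries lay apart, at 28.4 and 101 deposited FPKM. *Hbegf* changed by -2.61 ± 0.18 (adjusted p = 0.000346), to 17.6 and 16.6 FPKM from 134 and 89.1. In the germ *Cd44* rose by 1.33 ± 0.14 (adjusted p = 0.00201) and *Areg* by 2.63 ± 0.34 (adjusted p = 0.0035), while *Lef1* changed by -3.03 ± 0.22 (adjusted p = 0.000633) and *Lgr5* by -2.60 ± 0.23 (adjusted p = 0.00115). Cytokine and chemokine genes rose in the germ in 14 of 38 cases and fell in none. Hedgehog genes fell there in 3 of 10 cases and rose in none.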

How the data were processed

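Dermal papilla and hair germ cells of dorsal mouse skin were profiled by RNA sequencing after full-length cDNA amplification, and per the labels and the submitters' processing notes the reads were aligned with STAR 2.4.2 to mm10 (GRCm38). The deposited values are FPKM per gene, which the authors estimated with RSEM for each library in a separate table for each cell type. Per the study's methods the RNA came from cells sorted by flow cytometry; the markers and gates used for these libraries are not stated there. The labels give 2 libraries per group, which were grouped by those labels, and the numbers of replicates stand as in the labels. The depth behind each value is unknown: whole reads could not be recovered from the FPKM steps, and no counting interval is given.

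Tables were joined on the Ensembl identifier, and gene symbols turned into dates (25 and 23 in the tables) were restored from the identifier. Protein-coding genes of both tables that reached 1 FPKM in 2 or more libraries were rescaled by median ratios over 11744 genes and read as log2(FPKM + 1). The call for a large difference between tables is a fixed rule without a test, since 2 against 2 libraries cannot go below p = 0.333 in an exact permutation test. The difference of differences at P56 was tested with limma 3.58.1 in R 4.3.3, with a trend, two-sided, with Benjamini-Hochberg adjustment over all genes. The estimate of the spread was shared by the 8 libraries of both cell types. The values of this test are rescaled over 8 libraries and differ slightly from those rescaled over 4. Both steps were run on simulated data, each with the same spread for all genes and libraries. Those runs therefore do not show how the steps behave with the wider spread of the papilla. Other steps used Python 3.11.15 with pandas 2.3.3, numpy 2.4.6 and matplotlib 3.10.9.

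The 40 gene lists (660 genes, with 499 genes in 22 pathway lists), the pairs and the libraries compared were chosen with earlier results of these data known. Genes were named by rule: up to 4 called members of each list and role with the largest nearest-library difference, or the most abundant where none was called, the 8 largest in each direction, 11 fixed genes, and for the difference of differences the 5 largest in each direction and every called pathway gene. A few genes that the rule names are not reported here, and the counts include them. Other genes named, such as members of pairs, markers, *Wnt4*, *Bmp4*, *Fgfr2*, *Nrg2*, *Tslp*, *Ccl11*, *Col17a1* and the genes of 1 table, were chosen after their values were seen. Alternatives changed the pseudocount, filter, scaling, threshold, spread and the libraries used. All columns of per-sample values in these tables were mapped to labelled samples. Promoter sequence is from RefSeq (GRCm38.p6), and gene positions are from GENCODE on GRCm38.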

Additional observations from a re-analysis of the deposited data

Results flagged for a closer look

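These results were flagged because the distance between dermal papilla and hair germ differed between nevus and wild type skin in the limma test, with 1072 genes positive and 1295 negative. Values are the difference of differences in log2(rescaled FPKM + 1), each past an adjusted p of 0.05. Sex and the nevus state of the papilla cannot be told apart, and the parts of Schwann, mural and epidermal RNA were not tested. Hair cycle phase cannot be told apart from the nevus state either.

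On the positive side, where dermal papilla minus hair germ was more positive in nevus skin, WNT genes were *Wif1* (6.75), *Rspo4* (4.71), *Lef1* (3.36), *Notum* (2.98), *Sfrp4* (2.47), *Ndp* (2.37), *Lgr5* (2.10, higher in the germ than in the papilla in wild type and near level in nevus), *Ror2* (1.48) and *Fzd1* (1.36). Hedgehog and Notch genes were *Gli2* (2.81), *Gli1* (2.40), *Hey2* (3.26) and *Hey1* (2.97). Endothelin genes were *Ednra* (2.91), *Ednrb* (2.36) and *Edn3* (1.64), and BMP genes were *Bambi* (1.99) and *Gdf10* (1.85). Matrix, protease and other pathway genes were *Mmp9* (3.89), *Spp1* (3.73), *Tnfrsf11b* (3.46), *Fn1* (3.15), *Ptprz1* (1.48) and *Col5a1* (1.02). The remaining positive genes were *Eif2s3y* (5.46) and *Ddx3y* (5.45), both on the Y chromosome, with *Mmp13* (5.30) and *Aldh1a7* (5.23).

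On the negative side, adhesion genes were *Itga3* (-3.98), *Itgb4* (-3.92), *Itga6* (-2.96), *Itgb6* (-1.52), *Jup* (-2.11), *Cd44* (-1.97), *Ocln* (-1.31), *Lama3* (-1.14), *Gjb6* (-1.09) and *Cdh3* (-1.07). Ligands were *Areg* (-3.41), *Wnt10a* (-3.37), *Ccl20* (-2.96), *Hbegf* (-2.86), *Tslp* (-2.35), *Wnt3* (-2.30), *Cxcl16* (-1.29) and *Igf1* (-1.27), with the binding protein *Igfbp7* (-1.14) and *Nras* itself (-1.94). Genes with known nerve or muscle expression were *Mbp* (-7.95), *Ngfr* (-6.81) and *Myh11* (-5.88), beside *Art3* (-6.09) and *Sema3b* (-4.26).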

How the results depend on the processing

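Between the tables, the counts of 539 and 316 genes stayed within 1.5 times under a pseudocount of 0.1, both other filters, deposited FPKM and scaling to a common sum. Rescaling on housekeeping genes left 166 genes higher in the hair germ. A 4-fold threshold gave 939 and 668 genes and 6 split pairs, and a 16-fold threshold gave 307 and 119 genes. Leaving out 1 library, which by construction makes the nearest-library rule easier to pass, gave 566 to 660 and 331 to 451 genes and 0 to 1 split pairs. A pseudocount of 0.1 gave 1 split pair, *Nrg2* with *Erbb3*. Of the 93 named genes with a call, 87 kept it with the housekeeping scaling, which lost *Fzd6*, *Hbegf*, *Epha2*, *Il33*, *Itga6* and *Itgb6*, 92 with the common sum, which lost *Epha2*, and 68 at 16-fold. All 93 kept it under the other alternatives. Pairs expressed on both sides numbered 71 and 64 at 1 FPKM and 18 and 12 at 10 FPKM, levels chosen after seeing the data, and 35 to 37 and 29 to 32 with 1 library left out.

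For the difference of differences, leaving out 1 library gave 979 to 3133 genes in place of 2367. The low values were 1016, 1017, 979 and 1022 without each of the hair germ libraries, whose replicates are the closest, and the highest was without nevus dermal papilla library 1. Genes changed in the papilla numbered 1225 to 2286 and in the germ 459 to 1359 (459 to 520 without a hair germ library). Estimating the spread by cell type, an alternative chosen after seeing the data, left 923 genes changed in the papilla. Of 58 single genes, 34 kept their call under all 15 alternatives. *Gjb6* reversed to 0.26 with a pseudocount of 0.1, and the cause was not tested. Among the genes with values above, *Cdh3*, *Col5a1*, *Cxcl16*, *Ednrb*, *Gdf10*, *Gjb6*, *Gli1*, *Hey2*, *Igf1*, *Igfbp7*, *Itgb6*, *Lama3*, *Ndp*, *Ocln*, *Ptprz1*, *Ror2*, *Rspo4*, *Wif1* and *Wnt3* lost their call when any 1 hair germ library was left out, and *Hey1* without nevus germ library 1 or wild type germ library 2. Counting all alternatives, *Ocln* lost its call in 11 of 15, *Igf1* in 10, *Col5a1* and *Wnt3* in 9, and *Cdh3*, *Cxcl16*, *Gdf10*, *Igfbp7* and *Lama3* in 8. *Ccl20* lost it with a pseudocount of 0.1 alone. *Ptch1* passed with the spread by cell type and when either wild type papilla library was left out and *Rspo3* without the second of them.

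Replicate numbers did not pair the libraries: deviations from the group means correlated between -0.056 and 0.055. With the replicate block 2223 genes differed in the difference of differences, 1564 changed in the papilla and 1199 in the germ.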
